A study of Mus musculus with 4 samples.

Results

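The 10 genes described here are the classical and nonclassical MHC class II genes H2-Aa, H2-Ab1, H2-Eb1, H2-Ea-ps, H2-DMa, H2-DMb1, H2-DMb2 and H2-Ob, the invariant chain gene Cd74, and Ciita, the master activator of class II transcription. They were taken by gene symbol, and all 10 were found among the 23284 gene symbols of each file. The RNA came from whole mouse colon, from which living podoplanin-positive stromal cells had been sorted that lacked CD45 (leukocytes), CD31 (endothelium) or EpCAM (epithelium). There were 4 groups with 1 library each: on the BALB/c background a wild type and a knockout of Rag2, and on the C57BL/6J background a wild type and a knockout of IL-10. Neither the age of the mice nor the number of animals behind a library is in the labels, and both knockouts are named there by gene alone. Values are FPKM, fragments scaled to transcript length and to the size of a library, as computed by the authors. A log2 ratio is a difference in log2 of FPKM plus 1. Genes with at least 1 FPKM in either library of a pair were compared, and a log2 ratio of at least 1 in size was counted as 2-fold. Since no group has a second library, replicate error is unknown and nothing was tested, so "higher" and "lower" describe these libraries.

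MHC class II molecules carry peptides from the endosome to the cell surface, where CD4 T cells read them. An alpha and a beta chain pair in the endoplasmic reticulum around the invariant chain, which blocks the groove and steers the complex to the endosome, and there the DM heterodimer exchanges the remaining fragment for peptide while the DO heterodimer restrains DM. Dendritic cells, B cells and macrophages express these genes constitutively, whereas fibroblasts and epithelium take them up mainly under interferon-gamma, which switches on Ciita. The CIITA protein does not bind DNA itself but joins factors (RFX, CREB and NF-Y) that sit on the paired X and Y boxes upstream of class II genes.

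In the RefSeq annotation of GRCm38.p6, 8 of the genes lie on chromosome 17 within the H2 complex. H2-DMa spans 34119693 to 34139101, H2-DMb2 34143229 to 34151553 and H2-DMb1 34153191 to 34160229. H2-Ob lies at 34238905 to 34245908, followed by H2-Ab1 at 34263227 to 34269418, H2-Aa at 34282744 to 34287823 and H2-Eb1 at 34305867 to 34316674. H2-Ea-ps, which RefSeq lists as H2-Ea, a transcribed pseudogene of the C57BL/6J genome, lies at 34341952 to 34344645. Ciita lies on chromosome 16 at 10480014 to 10531064. Cd74 lies outside the H2 complex.

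The promoter letters that the class II activator complex is known to work through are shown so that the members can be compared. RefSeq windows at annotated starts were held for H2-Aa, H2-Eb1, H2-DMa, H2-DMb1, H2-DMb2 and H2-Ob. H2-Ab1, H2-Ea-ps, Cd74 and Ciita had no entry. Capitals mark, in order, the first motif (AACNNNTGATG, part of the X box, or in H2-Aa the palindrome TGACGTCA of its X box) and the Y box letters TGATTGG, a reversed CCAAT box. Each stretch is written 5′ to 3′ on the strand of its gene.
H2-Eb1 (chr17:34305766-34305824, plus strand): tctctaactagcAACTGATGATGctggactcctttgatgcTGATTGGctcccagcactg
H2-Ob (chr17:34238808-34238864, plus strand): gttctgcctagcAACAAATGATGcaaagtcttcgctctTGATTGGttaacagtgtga
H2-DMb1 (chr17:34153087-34153146, plus strand): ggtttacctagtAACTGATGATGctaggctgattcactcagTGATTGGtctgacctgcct
H2-DMb2 (chr17:34145116-34145175, plus strand): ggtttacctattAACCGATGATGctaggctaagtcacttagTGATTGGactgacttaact
H2-Aa (chr17:34287855-34287909, minus strand): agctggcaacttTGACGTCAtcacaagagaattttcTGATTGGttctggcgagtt

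The 5 stretches share one layout, which was partly required. Only stretches where the Y letters followed the first motif on the same strand, starting no more than 60 bases on, were printed. Between 15 and 18 bases separate the first motif from the Y box, which begins 50 to 92 bases before the annotated start. Searched on both strands of all 32851 windows, the X motif was present in 0.615%, the Y letters in 7.82% and the palindrome in 1.79%. The X motif followed on the same strand by the Y letters, starting no more than 60 bases on, was found in 6 windows (0.0183%), and 4 of these belong to H2-Eb1, H2-Ob, H2-DMb1 and H2-DMb2. The palindrome followed by the Y letters was found in 14 windows (0.0426%), H2-Aa among them. The motif letters were chosen after these windows had been read, so the shares describe the letters and do not test them. Neither of the 2 windows of H2-DMa held any of the 3 motifs. The windows of H2-Oa and H2-Eb2, class II genes that are not members here, held the Y letters without the X motif or the palindrome.

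The series as a whole set limits on these values. Depth was estimated from the steps between low FPKM values at 9960000 fragments for wild-type BALB/c, 9680000 with Rag2 knocked out, 8730000 for wild-type C57BL/6J, and 8380000 with IL-10 knocked out. Any scaling between libraries by the authors' software would enter these estimates. Il10 had 3.33 FPKM in wild-type C57BL/6J and 129.9 in the library labelled IL-10 knockout, and Rag2 was listed at 0 in wild-type BALB/c and at 0.712 in the library labelled Rag2 knockout. The labels do not describe either knockout allele, and a value for the whole gene does not show which part was read. Neither value therefore checks its label, and why these genes had such values was not tested. Fibroblast markers were abundant everywhere (15 genes, summed FPKM between 15209 and 17357), but Ptprc, which encodes CD45, was present at 3.34 to 43.1 FPKM in spite of the sort. Xist and the Y-linked Ddx3y were at 23.02 and 16.9 FPKM in wild-type C57BL/6J and at 44.9 and 0.0269 in IL-10 knockout, so sex-linked transcripts differ within that comparison. They also differ between the wild types, since Xist was at 0.0509 and Ddx3y at 36.3 FPKM in wild-type BALB/c. Gapdh was at 0.349 FPKM or less in all 4 libraries, which means that a gene listed near 0 in these files need not be silent.

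The library labelled IL-10 knockout had the highest level of 9 of the 10 genes among the 4 libraries. Against wild-type C57BL/6J, the classical chains and the invariant chain were about 8-fold higher, each by nearly the same factor. All 9 members that could be compared were at least 2-fold higher and 0 lower, where 10.1% of the 12790 genes compared were higher and 3.82% lower. At 4-fold, 7 members were higher and 0 lower, against 3.74% and 0.485% of all genes. Their median log2 ratio was 2.87, beside -0.00176 over all genes compared. H2-Ea-ps was listed at 0 in both C57BL/6J libraries and was not compared.

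**Figure D1:**
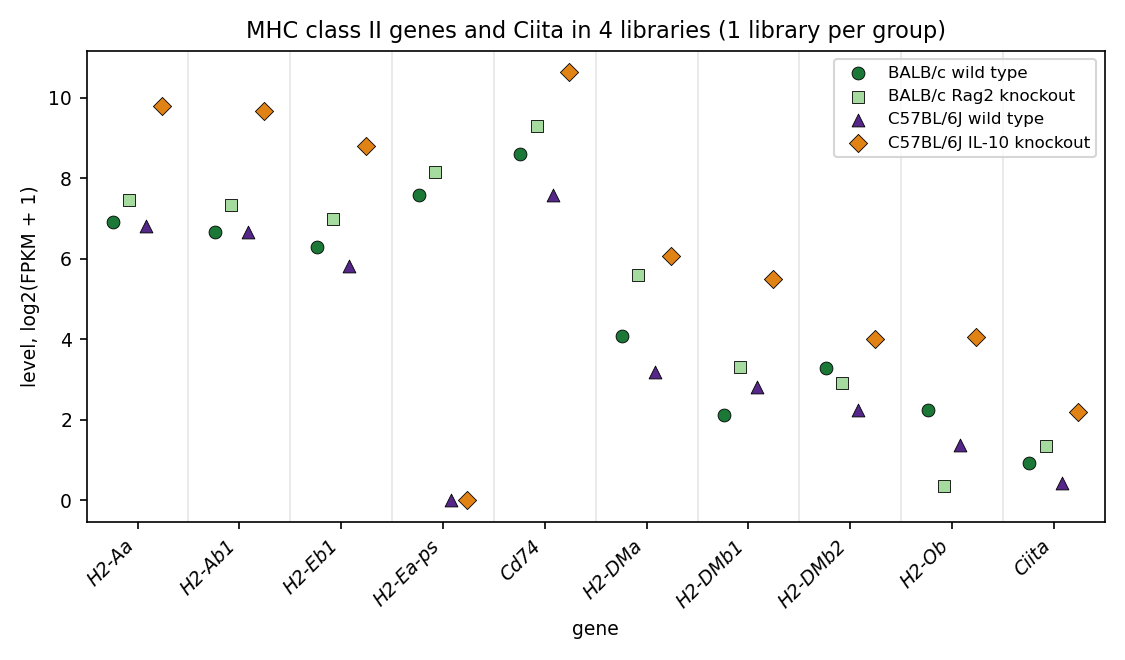
Level of each gene on the log2(FPKM + 1) scale (vertical axis) in the 4 libraries (1 point per library, no error bars because each group has 1 library). The IL-10 knockout point is the highest for every gene except H2-Ea-ps, which is at 0 in both C57BL/6J libraries, and the Rag2 knockout point is the lowest for H2-Ob.

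H2-Aa encodes the alpha chain of I-A, the class II molecule that both strains make. It had 119 FPKM in wild-type BALB/c, 177 with Rag2 knocked out, 112 in wild-type C57BL/6J, and 895 with IL-10 knocked out. The wild types lay close together, the Rag2 knockout was somewhat above them, and the IL-10 knockout stood far above all of these. Its log2 ratio was 2.99 for the IL-10 pair and 0.57 for the Rag2 pair.

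H2-Ab1 encodes the beta chain of I-A. Its levels were 100.3 FPKM in wild-type BALB/c, 162 with Rag2 knocked out, 101 in wild-type C57BL/6J, and 811 with IL-10 knocked out. The wild types of the strains had a log2 ratio of -0.01 (FPKM ratio 0.991, counting interval 0.905 to 1.09), while the IL-10 and Rag2 comparisons gave 2.99 and 0.69. Read as an FPKM ratio, the IL-10 knockout was 8.01-fold above its wild type, with a 95% counting interval of 7.47 to 8.60. Such intervals rest on the estimated depth and on an annotated transcript length, and they cover counting error only.

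H2-Eb1, the beta chain of I-E, had 77.9 FPKM in wild-type BALB/c, 126 with Rag2 knocked out, 55.6 in wild-type C57BL/6J, and 450.4 with IL-10 knocked out. It followed H2-Ab1 in both knockout comparisons, with log2 ratios of 2.997 and 0.69. It differed from H2-Ab1 between the wild types, where BALB/c was 1.40-fold above C57BL/6J (counting interval 1.26 to 1.56).

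H2-Ea-ps, the alpha chain of I-E, separated the strains completely. It had 191 FPKM in wild-type BALB/c and 285 in Rag2 knockout and was listed at 0 in both C57BL/6J libraries, so no fold is given between strains. As background, mice of the H2-b haplotype, C57BL/6J among them, have no functional E alpha gene, whereas the H2-d haplotype of BALB/c has one. Within BALB/c its log2 ratio was 0.57, as was that of H2-Aa. Its beta partner H2-Eb1 was transcribed in both strains.

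Cd74 encodes the invariant chain and was the most abundant member in every library. It had 389.98 FPKM in wild-type BALB/c, 635 with Rag2 knocked out, 191 in wild-type C57BL/6J, and 1595 with IL-10 knocked out. Among all 23284 genes it ranked 145 in wild-type BALB/c and 326 in wild-type C57BL/6J, and it reached rank 32 in the IL-10 knockout. The log2 ratios were 3.05 in the IL-10 comparison, 0.70 in the Rag2 comparison and 1.02 between the wild types. Unlike the I-A chains, Cd74 thus differed between the wild-type libraries, by 2.04-fold as an FPKM ratio (counting interval 1.93 to 2.15).

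H2-DMa encodes the alpha chain of DM, the peptide editor of the endosome. It had 16.1 FPKM in wild-type BALB/c, 47.3 with Rag2 knocked out, 8.18 in wild-type C57BL/6J, and 66.1 with IL-10 knocked out. It was the member with the highest ratio in the Rag2 comparison, 1.499, and its IL-10 ratio was 2.87.

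The beta chain of DM has a pair of neighbouring genes whose values may share reads. The coding transcripts of H2-DMb1 and H2-DMb2 were 89.0% to 92.8% identical over aligned bases, and 25.8% to 27.2% of the 50-base stretches of H2-DMb1 occurred exactly in H2-DMb2, so the division of fragments between them is uncertain. H2-DMb1 had 3.35 FPKM in wild-type BALB/c, 8.91 with Rag2 knocked out, 6.06 in wild-type C57BL/6J, and 44.7 with IL-10 knocked out. H2-DMb2 stood at 8.85, 6.60, 3.76 and 15.04 FPKM, listed as for H2-DMb1. Summed, the pair had 12.2, 15.5, 9.82 and 59.7 FPKM, which gives log2 ratios of 2.49 in the IL-10 comparison, 0.32 in the Rag2 comparison and 0.29 between the wild types. H2-DMb1 alone passed 2-fold in the Rag2 comparison (1.19), H2-DMb2 stood at -0.37 there, and the sum was within 2-fold.

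H2-Ob encodes the beta chain of DO, the regulator of DM that B cells in particular express. It had 3.75 FPKM in wild-type BALB/c, 0.293 with Rag2 knocked out, 1.58 in wild-type C57BL/6J, and 15.8 with IL-10 knocked out. The level in the Rag2 knockout stands for about 5 fragments and that in wild-type BALB/c for about 62. Its log2 ratio was 2.70 for the IL-10 pair and -1.88 for the Rag2 pair, the only member at least 2-fold lower anywhere. As an FPKM ratio the Rag2 knockout was at 0.0783 of its wild type (counting interval 0.0260 to 0.204). With a pseudocount of 5 the log2 ratio was -0.72 and the gene was not 2-fold lower.

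Ciita was low in every library. Its levels were 0.903 FPKM in wild-type BALB/c, 1.57 with Rag2 knocked out, 0.355 in wild-type C57BL/6J, and 3.56 with IL-10 knocked out, or about 36, 61, 12 and 120 fragments. The order of the libraries was the same as for Cd74. Its log2 ratio of 1.75 for the IL-10 pair understates the change of so low a gene, because the added 1 exceeds the wild-type value. Without it, the FPKM ratio was 10.02 with a counting interval of 5.74 to 20.7, which includes the ratio of 8.34 for Cd74. In the Rag2 comparison the FPKM ratio was 1.74 (1.14 to 2.71), beside 1.63 for Cd74. Ciita has several promoters that differ between cell types, and a value for the whole gene cannot tell them apart.

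In the Rag2 comparison, members went in different directions. The classical chains, H2-Ea-ps and Cd74 were higher by log2 ratios of 0.57 to 0.70, short of 2-fold, H2-DMa and H2-DMb1 passed 2-fold, and H2-Ob was lower. Of the 10 members, 2 were at least 2-fold higher and 1 lower, where 4.42% and 2.03% of 12336 genes were. At 4-fold, 0 were higher and 0 lower, against 1.22% and 0.276%. The median over members was 0.63. The knockout comparisons share no library, and the IL-10 ratio exceeded the Rag2 ratio by at least 1 for 9 of 9 members (5.9% of 12048 genes) and fell below it by as much for 0 (2.29%). The smallest of these gaps was 1.32, for Ciita, and the largest 4.58, for H2-Ob.

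**Figure D2:**
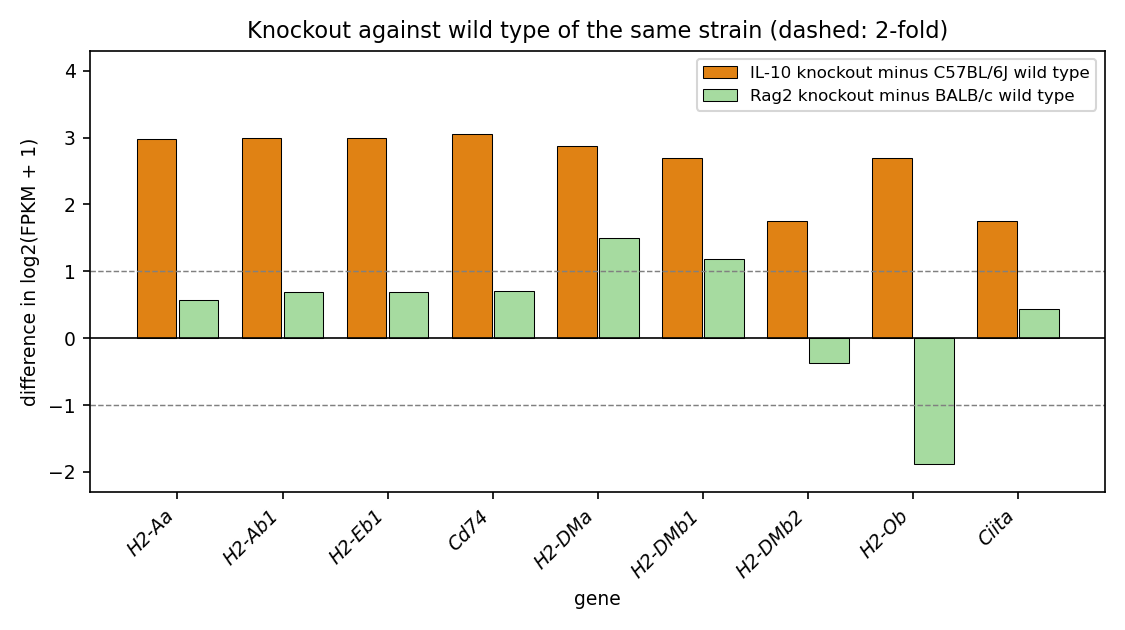
Difference in log2(FPKM + 1) between each knockout library and the wild type of its strain for 9 genes (bars, 1 library against 1, no error bars); H2-Ea-ps is left out because both C57BL/6J libraries are at 0. The IL-10 bars of H2-Aa, H2-Ab1, H2-Eb1 and Cd74 lie between 2.99 and 3.05, while the Rag2 bars run from -1.88 for H2-Ob to 1.499 for H2-DMa.

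Between the wild types, 3 of the 9 members compared were at least 2-fold higher in BALB/c and 0 were lower, against 1.81% and 2.17% of 12290 genes. At 4-fold, 1 was higher and 0 lower, against 0.334% and 0.382%. The 3 were H2-Ea-ps, H2-DMb2 (1.05) and Cd74 (1.02). The count depended on the setting. With a pseudocount of 5 it was 2, with H2-DMb2 at 0.66, and with H2-DMb1 and H2-DMb2 summed it was also 2. With a pseudocount of 0.1 it was 4, and after rescaling without small RNA rows to a larger sum, against which the pseudocount weighs less, it was 5. Without H2-Ea-ps the median over members was 0.68. The build is that of C57BL/6J, and the class II chains of BALB/c carry other alleles. What that does to the mapping of BALB/c fragments was not tested. Of 12 B cell markers compared, 9 were at least 2-fold higher in wild-type BALB/c (median 1.24, summed FPKM 57.1 against 17.1). Pan-leukocyte markers had a median of 0.87 (2 of 12 higher; 146 against 82.5). The medians were 0.55 for macrophage and monocyte markers (3 of 15 higher) and -0.00388 for dendritic cell markers (1 of 8 higher). No marker of these lists was 2-fold lower. The part of leukocyte transcripts in this comparison was not tested.

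Within a library, some ratios between members differed by strain and hardly by genotype. H2-Aa over H2-Ab1 was 1.19 in wild-type BALB/c, 1.09 with Rag2 knocked out, 1.11 in wild-type C57BL/6J, and 1.10 with IL-10 knocked out, with wild-type BALB/c the highest. H2-Eb1 over H2-Ab1 was 0.776 and 0.779 in the BALB/c libraries and 0.549 and 0.556 in the C57BL/6J libraries. Cd74 over H2-Ab1 was 3.89 and 3.92 in BALB/c and 1.89 and 1.97 in C57BL/6J. Each of the last 2 ratios thus lay closer between genotypes of a strain than between strains, although the levels themselves differed about 8-fold between the C57BL/6J libraries. H2-Ea-ps over H2-Eb1 was 2.45 in wild-type BALB/c and 2.25 in Rag2 knockout.

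The DM and DO genes did not keep such ratios. H2-DMa over the sum of the DM beta genes was 1.32 in wild-type BALB/c, 3.05 with Rag2 knocked out, 0.834 in wild-type C57BL/6J, and 1.11 with IL-10 knocked out. H2-Ob over the same sum was 0.307, 0.0189, 0.161 and 0.264 in that order. The Rag2 knockout therefore had the highest share of DM alpha chain and the lowest of DO beta chain among the 4 libraries. Ciita transcripts per 1000 of Cd74, both per length, were 2.31, 2.47, 1.86 and 2.23.

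**Figure D3:**
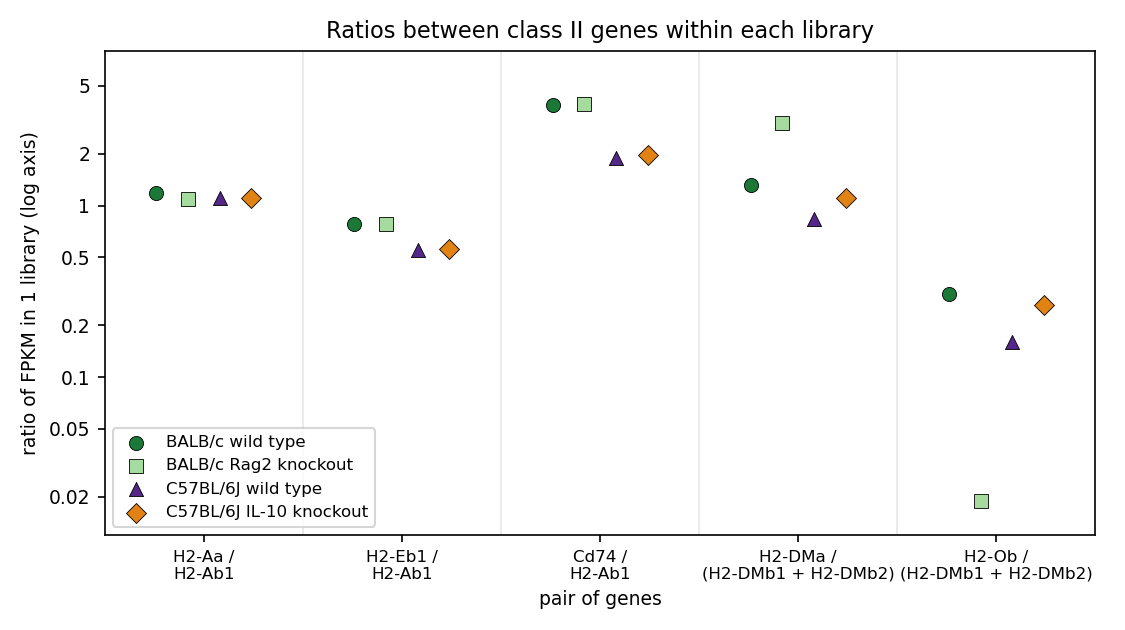
Ratio of the FPKM of class II genes within each library (log axis, 1 point per library). Cd74 over H2-Ab1 lies at 3.89 and 3.92 in BALB/c and at 1.89 and 1.97 in C57BL/6J, and H2-Ob over the sum of H2-DMb1 and H2-DMb2 is lowest in the Rag2 knockout at 0.0189.

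Markers of cells that carry class II constitutively moved with these genes in the IL-10 comparison. All 12 pan-leukocyte markers were at least 2-fold higher in the IL-10 knockout (median log2 ratio 2.996, summed FPKM 799 against 82.5), as were all 13 B cell markers (2.32; 155 against 17.1). Of 15 macrophage and monocyte markers compared, 12 were higher and 0 lower (2.35; 1578 against 208), among them Tyrobp, a signalling adaptor, at 228 against 12.8 FPKM. Mertk of the same list went the other way, short of 2-fold, at 4.16 against 7.17 FPKM. Of 12 dendritic cell markers 6 were higher and 0 lower (1.02; 119 against 73.2), with the integrin gene Itgax at 11.2 against 0.689 FPKM. In wild-type C57BL/6J the B cell gene Pax5 was listed at 0, and no marker of these 4 lists was at 0 in the IL-10 knockout. All 9 neutrophil markers were higher too (4.53; 3867 against 9.71), with Cxcr2, Ngp and Camp listed at 0 in the wild type. The 15 fibroblast markers had a median of -0.19, with 0 higher and 2 lower. The part of leukocyte transcripts in the class II result was not tested, and in bulk RNA more cells of a type cannot be told apart from more RNA per cell.

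In the Rag2 comparison the marker lists parted, and so did the members. B cell markers were lower (10 of 12 at least 2-fold, 0 higher, median -2.0, summed FPKM 7.76 against 57.1), with Pax5, Fcer2a, Pou2af1 and Fcrla listed at 0 in the Rag2 knockout. Pan-leukocyte markers had a median of 0.41 (1 of 12 higher; 221 against 146), macrophage and monocyte markers 0.57 (5 of 16 higher; 775 against 368) and dendritic cell markers 0.13 (1 of 7 higher; 82.6 against 76.4). No marker of those last 3 lists was at 0 in either BALB/c library. All 5 neutrophil markers compared were higher in the Rag2 knockout (median 2.66, summed FPKM 243 against 23.9 over 9 genes), with Cxcr2 listed at 0 in the wild type. Of 11 T cell and innate lymphoid cell markers 1 was higher and 3 lower (-0.44; 13.2 against 23.6), with Cd3g, Cd5 and Trat1 listed at 0 in the knockout. For comparison, the classical chains and Cd74 stood at 0.57 to 0.70 and H2-Ob at -1.88. Epithelial markers were higher in both knockouts, with medians of 1.63 in the IL-10 comparison (14 of 15; summed FPKM 474 against 128) and 1.62 in the Rag2 comparison (12 of 14; 196 against 63.5), and none was at 0 in any library. The part of these cells in the class II values was not tested.

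**Figure D4:**
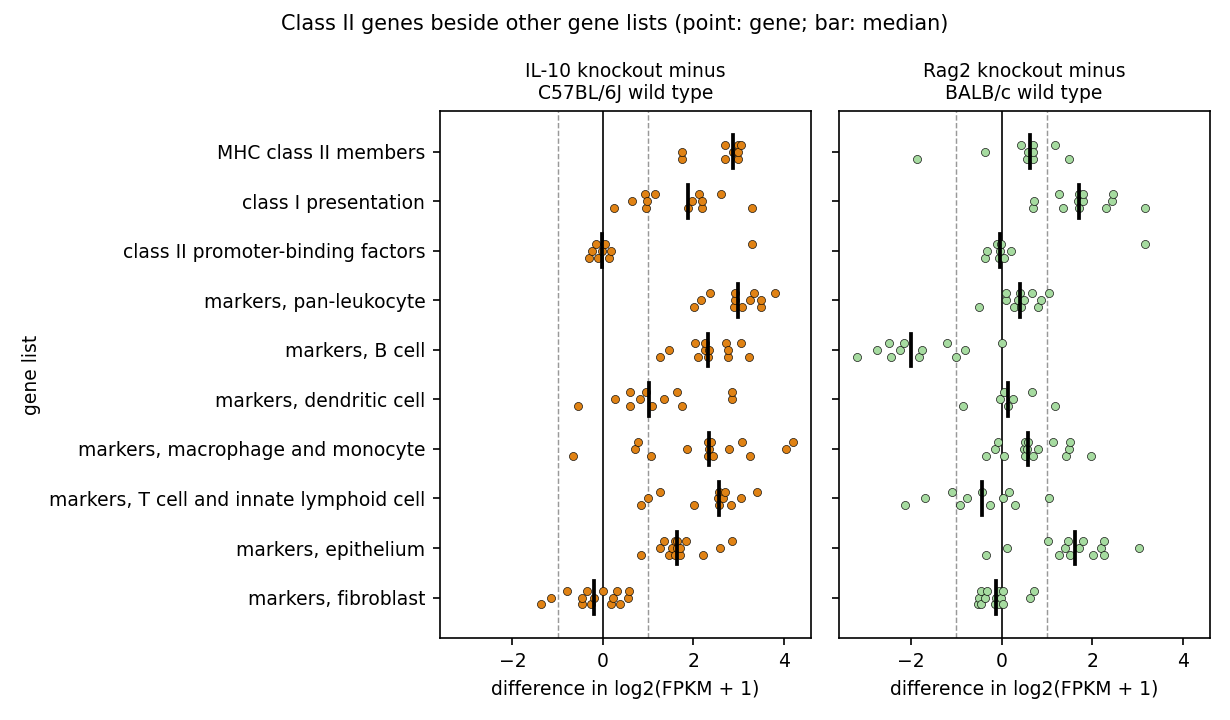
Difference in log2(FPKM + 1) for each compared gene (points) of 10 gene lists in the IL-10 comparison (left) and the Rag2 comparison (right), with the median of each list as a black bar and 2-fold as dashed lines. The class II median is 2.87 on the left, beside 2.996 for pan-leukocyte markers, and 0.63 on the right, where the B cell median is -2.0.

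The factors that bind class II promoters were mostly within 2-fold in both knockout comparisons. Over all genes compared, 10.1% were at least 2-fold higher for the IL-10 pair and 4.42% for the Rag2 pair. Of 9 genes in this list, 1 was at least 2-fold higher in each knockout comparison and 0 were lower, with medians of -0.03 and -0.04. That gene was Nlrc5, which is related to Ciita but activates MHC class I genes. It had 1.40 FPKM in wild-type BALB/c, 20.6 with Rag2 knocked out, 1.24 in wild-type C57BL/6J, and 21.04 with IL-10 knocked out. Its log2 ratios were 3.30 for the IL-10 pair and 3.17 for the Rag2 pair, so that in the Rag2 knockout it stood far higher over its wild type than Ciita did. Rfx5, a subunit of the X box factor that was named after its values were seen, lay between 5.70 and 6.28 FPKM in all 4 libraries. Rfxank, another subunit, had ratios of -0.30 and -0.00418, and the NF-Y genes Nfyb and Nfyc were between -0.38 and 0.13.

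Genes of MHC class I presentation gave another pattern than class II. Of 13 genes, 8 were at least 2-fold higher for the IL-10 pair and 11 for the Rag2 pair, with medians of 1.89 and 1.72 and 0 lower in either. The peptide transporter gene Tap1, which lies in the class II region of the H2 complex, had 24.5 FPKM in wild-type BALB/c, 125 with Rag2 knocked out, 17.5 in wild-type C57BL/6J, and 112 with IL-10 knocked out. The immunoproteasome genes Psmb8 and Psmb9 from the same region had Rag2 ratios of 2.45 and 2.43. Class II genes of the region went in different directions in the Rag2 comparison. The ratio was 0.69 for H2-Ab1, 1.19 for H2-DMb1 and 1.499 for H2-DMa. It was -0.37 for H2-DMb2, -1.88 for H2-Ob and -1.12 for H2-Oa, and 0.32 for H2-DMb1 and H2-DMb2 summed. H2-Oa, the alpha chain of DO, had 2.50 FPKM in wild-type BALB/c, 0.613 with Rag2 knocked out, 1.90 in wild-type C57BL/6J, and 9.91 with IL-10 knocked out, and thus stood in the same order as its partner H2-Ob.

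Signals that switch on Ciita were partly higher. Of 12 genes in this list, 5 were at least 2-fold higher and 0 lower for the IL-10 pair, with 2 higher and 1, Pax5, lower for the Rag2 pair. Ifng, which encodes interferon-gamma, had 0.301 FPKM in wild-type BALB/c, 3.61 with Rag2 knocked out, 0.114 in wild-type C57BL/6J, and 11.7 with IL-10 knocked out. Both knockouts were thus above the wild type of their strain, the IL-10 knockout the highest of the 4 libraries. Ifngr2, a receptor chain, had ratios of 1.02 and 0.22, and Irf4, a factor of B cells and dendritic cells, 1.29 and -0.73.

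Among 10 genes that restrain Ciita or interferon signals, 4 were at least 2-fold higher for the IL-10 pair and 1 for the Rag2 pair. The feedback inhibitor gene Socs1 had ratios of 1.34 and 0.83. Ptpn6, a phosphatase of blood cells, had 2.72 and 0.76, and the receptor gene Il10ra had 3.04 and 1.05. Il10, the gene named in the label, was the remaining one of the 4.

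Genes for processing of the invariant chain and of antigen were mostly within 2-fold. Of 11, 3 were at least 2-fold higher for the IL-10 pair and 1 for the Rag2 pair, and 0 were lower. Ctss, the cathepsin that cuts the invariant chain, had 27.7 FPKM in wild-type BALB/c, 78.7 with Rag2 knocked out, 15.5 in wild-type C57BL/6J, and 157 with IL-10 knocked out. Its log2 ratios were 3.26 and 1.47, beside 2.87 and 1.499 for H2-DMa. The thiol reductase gene Ifi30 had 1.13 and 0.17, Ctse, another cathepsin, 3.68 and 0.19, and Ctsc 0.84 and 0.72. Of 10 genes for turnover and trafficking of class II molecules, 1 was at least 2-fold higher in the IL-10 comparison. That share is close to the 10.1% of all 12790 genes compared. The gene was Cd83, which holds class II at the surface of dendritic cells, at 49.4 against 15.5 FPKM (1.61). Its Rag2 ratio was 0.28.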

How the data were processed

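Messenger RNA libraries (TruSeq stranded mRNA, per the labels) were made from 4 sorted stromal samples, 1 per group. The authors deposited FPKM per gene symbol, 23284 rows per file with 0 repeated. Cuffdiff 2.2.1, TopHat2 2.1.1, SAMtools 0.1.18 and Bowtie2 2.2.8 are listed with build mm10 in the submitters' processing notes. Annotation and strand setting: not given in the sources used here. From these values log2 ratios were computed in Python 3.11.15 (pandas 2.3.3) with a pseudocount of 1, which understates changes of low genes, and with a filter of at least 1 FPKM in either library. Depth was estimated from GENCODE genes with 1 transcript of at least 1000 nt: steps of 1 to 3 fragments within 1%, with a fitted length offset of 205 nt. Counting and depth estimation were tested on simulated data.

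The members and all 24 gene lists (257 of 262 entries found) were chosen with earlier results of these data known. All members are named. From each other list the 4 genes (markers: 3) with the highest absolute ratio in either knockout comparison and at least 5 FPKM were eligible. Likeness of pattern is the root mean square distance of mean-centred log2 values over the 4 libraries. Alternatives were other pseudocounts, filters, scalings and a 4-fold threshold. Lists share some genes: Tap1, Tap2, Psmb8, Psmb9, Nlrc5, Pax5, Cd3e and Cd4 each stand in a pair of lists.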

Additional observations from a re-analysis of the deposited data

How the results depend on the processing

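No paired analysis was possible because each group has 1 library, and for the same reason no library could be left out. The 9 members higher in the IL-10 comparison were 7 at 4-fold and 8 or 9 otherwise, and 0 were lower under every alternative. In the Rag2 comparison the 2 higher members became 1 with a pseudocount of 5 or with H2-DMb1 and H2-DMb2 summed, and 0 at 4-fold. The 1 lower member, H2-Ob, became 0 with a pseudocount of 5, with a filter of 5 FPKM and at 4-fold. Between the wild types the 3 higher members became 5 after rescaling without small RNA rows, 4 with a pseudocount of 0.1, 2 with a pseudocount of 5, with the DM beta genes summed or without H2-Ea-ps, and 1 at 4-fold. The rescaling set each library to the same, larger sum, so it changed the weight of the pseudocount as well as the scale. Under it the median of all genes was -0.12 for the IL-10 pair and -0.14 for the Rag2 pair.

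The median over members in the IL-10 comparison (2.87) was 3.0002 with a pseudocount of 0.1, 2.43 with 5, 2.93 with a filter of 5 FPKM, 2.85 rescaled, 2.87 centred on all genes and 2.93 with the DM beta genes summed. In the Rag2 comparison (0.63) it was 0.69, 0.61, 0.69, 0.52, 0.63 and 0.57 in the same order, and 0.69 without H2-Ea-ps. Between the wild types (0.88) it was 0.97, 0.45, 0.69, 0.92, 0.88 and 0.68, then 0.68 without H2-Ea-ps and without any filter. Leaving out H2-Ea-ps and summing the DM beta genes were chosen after seeing the data. Of single members, H2-Ab1 between the wild types was the one whose sign changed (-0.02 to 0.05). Low levels make the ratios depend on the pseudocount: over the alternatives Ciita ran from 0.68 to 3.01 for the IL-10 pair and H2-Ob from -3.29 to -0.72 for the Rag2 pair.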

Other observations

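Genes of the cells that read class II, and of the ligands presented beside it, gave further contrasts. Of 7 genes of T cell receptors and coreceptors, 6 were at least 2-fold higher in the IL-10 comparison, where 0 of 7 were higher and 2 lower in the Rag2 comparison. Ctla4, a brake on T cells, had 3.37 FPKM in wild-type BALB/c, 0.538 with Rag2 knocked out, 2.39 in wild-type C57BL/6J, and 51.1 with IL-10 knocked out. Cd4, the coreceptor for class II, had 2.40, 1.4997, 1.62 and 15.5 FPKM in that order. Among ligands, Cd274, which encodes PD-L1, had 8.85, 46.7, 5.60 and 55.1 FPKM, so both knockouts were high. Cd86 had 3.999, 7.08, 2.21 and 19.1 FPKM, and Cd80 1.95, 5.46, 1.30 and 13.2. Tnfsf9 went the other way, with 191, 98.6, 180.2 and 54.3 FPKM.

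The classical chains and Cd74 were also set against the summed pan-leukocyte markers. The sum of H2-Aa, H2-Ab1, H2-Eb1 and Cd74 divided by the marker sum was 4.697 in wild-type BALB/c, 4.98 with Rag2 knocked out, 5.58 in wild-type C57BL/6J, and 4.69 with IL-10 knocked out. Cd74 was the largest term of that sum in every library, and the I-A chains varied more, with H2-Ab1 alone at 0.686, 0.734, 1.23 and 1.01 in that order. Against the B cell marker sum the quotient of the summed genes was 12.04, 142, 26.9 and 24.3. Against the macrophage and monocyte marker sum it was 1.87, 1.42, 2.22 and 2.38, and against the dendritic cell marker sum 8.998, 13.3, 6.29 and 31.5. The dendritic cell sum rested largely on 1 gene, Fscn1, at 50.8, 55.8, 56.3 and 38.4 of 76.4, 82.6, 73.2 and 119 FPKM. Fscn1 had a log2 ratio of -0.54 for the IL-10 pair, where 6 of 12 markers of its list were at least 2-fold higher. The last quotient therefore does not stand for the list as a whole. These quotients of FPKM sums were chosen after seeing the data and rest on 1 library each, and the source of the class II transcripts was not tested.

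Among 8810 genes, those nearest to Cd74 over the 4 libraries were Ptpn6, Ly6i, Fcgr2b, Il10ra and Laptm5, at root mean square distances of 0.12 to 0.14 in log2. Nearest to H2-Ob were Blk, Ms4a1, Cd2, Gimap3 and Vpreb3 (0.17 to 0.24). Blk and Ms4a1 are in the B cell list, and Cd2 is in the T cell and innate lymphoid cell list. Nearest to Ciita were C1qc, Ptpn18, Evi2a, Abcb1b and Jak3 (0.052 to 0.11). Of the genes near Cd74 and Ciita, Laptm5 is in the pan-leukocyte list and C1qc in the macrophage and monocyte list. With 4 libraries many genes lie close together, so these names are a description.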
